A study of Mus musculus and Rattus norvegicus with 85 samples.

Results

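The lungs of 5 rats that had breathed 200 ppm chloroprene for 15 exposure days were set against those of 5 rats that had breathed 90 ppm for the same time. The 10 arrays were chosen by concentration, exposure days and animal number in the sample titles (animals 277 and 279 to 282 at 200 ppm, 257 to 261 at 90 ppm), and they are 10 of the 85 samples of the series. Chloroprene is the volatile chlorinated diene from which neoprene rubber is made. All 10 were female F344/NCrl rats (one label field spells the strain F334/NCrl), 10 weeks old at the start, exposed whole-body for 6 h a day on 5 days a week and killed 19 days after the first exposure. The labels name no agent beside chloroprene in air. Total RNA of the right lung was hybridised to 1 Affymetrix Rat230_2 array per animal, so n = 5 rats per group throughout, and all values below are the log2 signals that the authors deposited. The series also holds mice and rats at other concentrations. Rats at 5 and 30 ppm after 15 exposure days, and at 90 and 200 ppm after 5 exposure days (other animals, 5 per group), appear here for comparison. No rat at 0 ppm was analysed here, so every level is relative to another exposed group.

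Chloroprene is oxidised in the lung by cytochrome P450 enzymes, CYP2E1 and CYP2F among them, to reactive epoxides, which epoxide hydrolase opens and glutathione transferases couple to glutathione. Electrophiles of this kind release the transcription factor NRF2 from its inhibitor KEAP1. NRF2 then raises the enzymes that make glutathione, couple it to electrophiles and reduce quinones and carbonyls. Club cells of the bronchioles hold much of the lung's P450 activity, and mitosis is rare in the adult lung at rest.

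The arrays carried a clear lung signature and 1 array that stood apart. Surfactant protein C (Sftpc) lay between 14.98 and 15.07 and the club cell secretoglobin Scgb1a1 between 14.95 and 15.08 on all 10, both close to the highest value of the rat table, 15.1, so that neither gene could show much of a further increase. The alveolar type 1 marker Ager lay between 13.52 and 13.71. RNA integrity scores were 8.1 to 9.2 at 200 ppm and 8.2 to 8.7 at 90 ppm (means 8.5 and 8.42; two-sided exact permutation test, p = 0.833). The 3′ minus 5′ difference of the Gapdh and beta-actin control probe sets, a measure of how complete the labelled RNA is, averaged 0.179 at 200 ppm (0.144 to 0.244) and 0.261 at 90 ppm (0.217 to 0.34). That difference of -0.0825 had p = 0.0238 in the two-sided exact permutation test and 0.0952 after Benjamini-Hochberg adjustment over the 4 array measures tested. The smallest p that 5 against 5 animals can give is 0.00794. The first principal component of the 10 arrays held 71.1% of the variance and did not follow the concentration. It had animals 277 and 282 of the 200 ppm group and 257, 258 and 259 of the 90 ppm group on one side and the other 5 animals on the other. The second component, 12.05% of the variance, set animal 282 of the 200 ppm group apart.

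The largest differences between animal 282 and the mean of the other 4 rats of its group were in conducting-airway genes. Other genes were lower in that rat, among them Tmed5 (-1.64), Lrrn3 (-1.51) and Mef2c (-1.29). Which genes made up the second component was not examined. Clca1, a secreted protein of mucous cells, was at 10.06 in animal 282 against 7.79, 5.69, 5.10 and 7.33 in animals 277, 279, 280 and 281. Muc5b, the main airway mucin, was at 10.13 against 7.59 to 8.37, and Krt15, a basal cell keratin, at 10.06 against 7.63 to 8.19. The same rat had the highest signal of its group for Cyp2a3 (12.40), a P450 of the airway and nose, for Bpifb1 (10.18) and for Scgb3a1 (13.42), secreted proteins of the larger airways. Within the 90 ppm group, animal 258 was the highest for Clca1 (8.21), Cyp2a3 (10.89) and Bpifa1 (13.50). These genes were chosen after their values were seen. The title of animal 282's sample has another form from those of the other 9 and leaves out the tissue, which its other label fields give as lung. Of the 40 rat titles 3 have that form. The others belong to animal 269 (200 ppm, 5 days, Muc5b 8.61, Krt15 7.94) and animal 239 (30 ppm, 5 days, Muc5b 7.72, Krt15 7.61). Neither was the highest of its group for Muc5b or Krt15, but animal 269 was the highest of its group for Cyp2a3 (11.12). In whole-lung RNA, more cells of a type and more RNA per cell cannot be told apart, and results that rest on animal 282 are given with and without it.

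**Figure D1:**
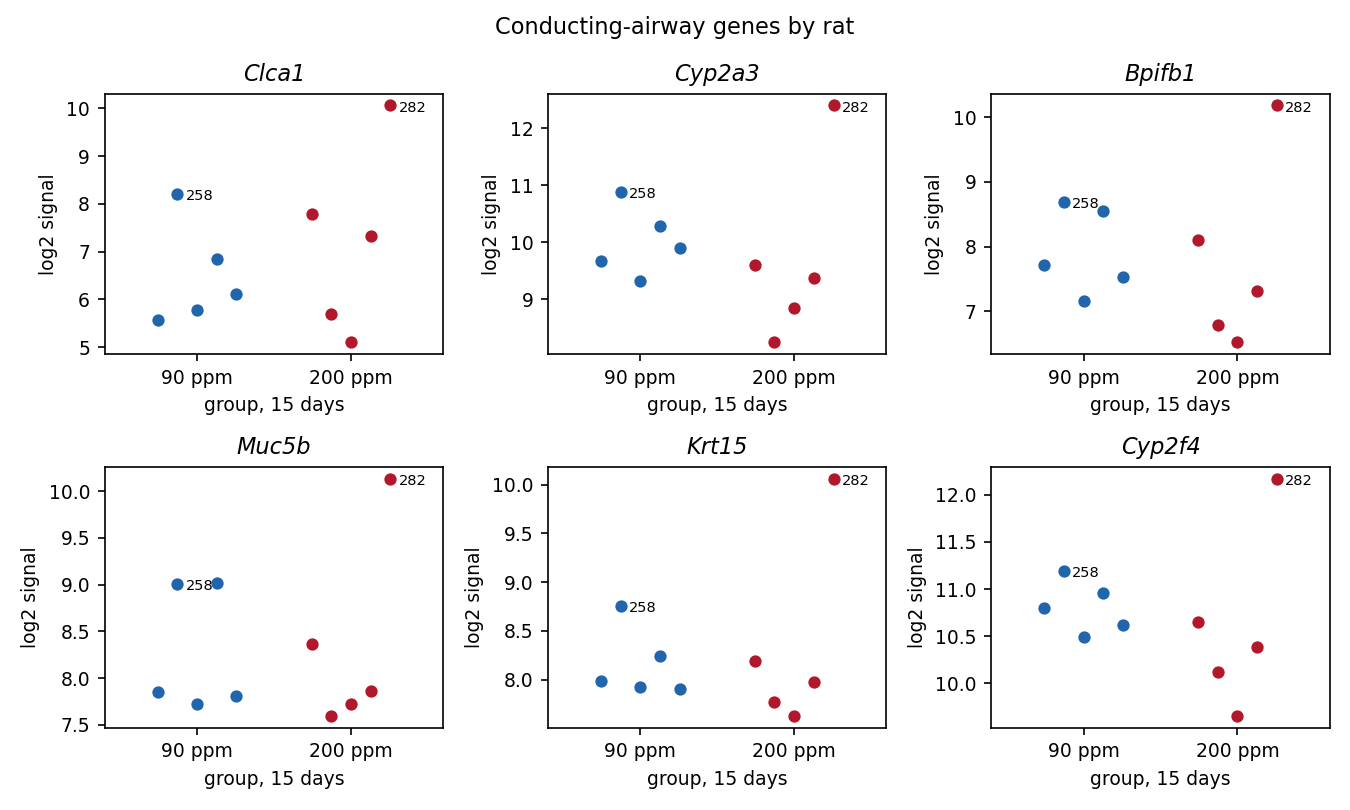
Log2 signal (y axis) of 6 conducting-airway genes in each rat at 90 and 200 ppm after 15 exposure days (x axis); each point is 1 animal, and animals 282 and 258 are numbered. Animal 282 is the highest of all 10 rats for each gene, at 10.06 for Clca1 and 12.40 for Cyp2a3, while the other 200 ppm rats lie within or below the range of the 90 ppm rats for Cyp2a3, Bpifb1 and Cyp2f4.

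Between 90 and 200 ppm after 15 exposure days no gene passed the test. The comparison asks whether the highest concentration changed lung transcripts beyond what the next lower one had done. Among 11010 genes, limma called 0 at an adjusted p under 0.05 (0%). The smallest adjusted p was 1.00, and 154 genes (1.4%) had an unadjusted p under 0.05, of which 37 (0.336%) were higher and 117 (1.06%) lower at 200 ppm. The precision was fair: the median standard error of a difference was 0.110, and the 95% interval lay within 1.5-fold either way for 10230 genes (92.9%) and within 2-fold for 10893 (98.9%). Differences of 1.5-fold or more were measured for 5 genes only. Clca1 was at 0.69 ± 0.85 (log2 difference, 200 minus 90 ppm, ± SE), and at -0.02 ± 0.84 without animal 282. The other 4 were lower at 200 ppm: Egr1, Nr4a1, Fst and Nr4a3. Nr4a3 lay below 6.65, the value of the filter on low signal, in every rat of both groups but animal 260. Leaving out animal 282 gave 1 called gene, Akr1b8. Every other animal left out gave 0, with 107 to 427 genes at an unadjusted p under 0.05; the highest of these counts came without animal 277 and compares with 189 without animal 282.

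**Figure D2:**
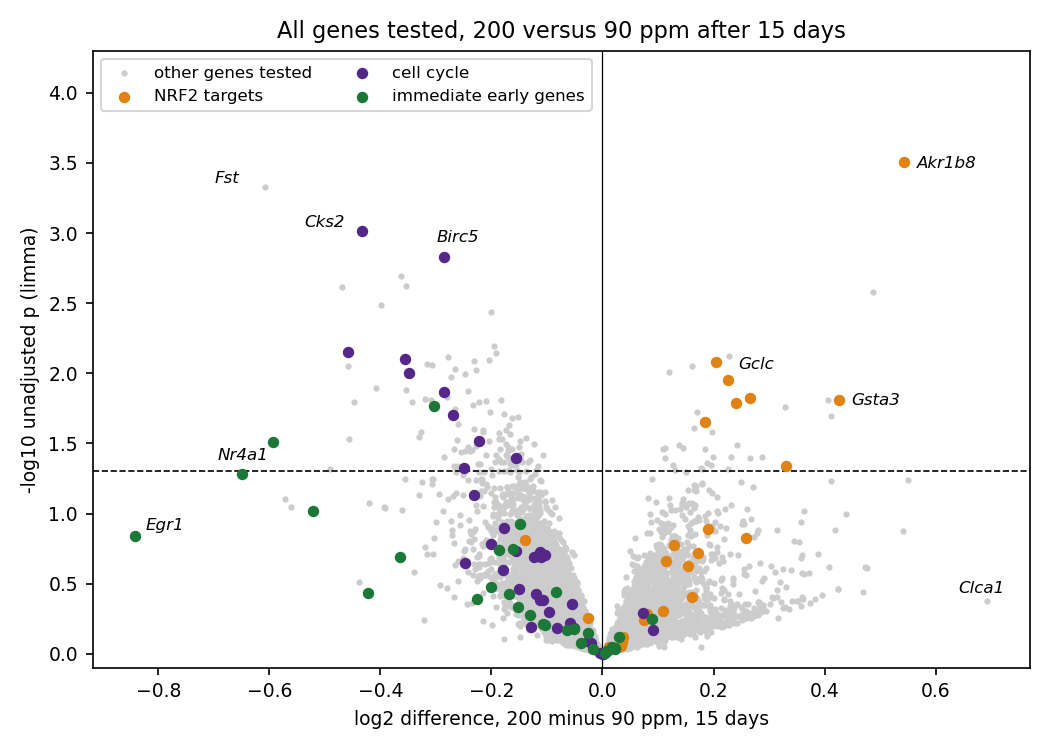
Log2 difference of 200 minus 90 ppm after 15 exposure days (x axis) against -log10 of the unadjusted limma p (y axis) for the 11010 genes tested, with members of 3 lists in colour; the dashed line marks the unadjusted threshold. Akr1b8 at 0.54 has the smallest p on the higher side and Fst at -0.61 on the lower, and no gene passed the adjusted threshold.

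The gene with the smallest p was Akr1b8, an aldo-keto reductase that reduces reactive aldehydes and a target of NRF2. Its signal was 10.75, 10.54, 10.61, 10.85 and 9.97 in the 200 ppm rats (animals 277, 279, 280, 281 and 282) and 10.04, 10.18, 9.94, 9.98 and 9.87 in the 90 ppm rats (257 to 261). Of the 200 ppm rats 4 lay above every 90 ppm rat, and animal 282 lay among them. The difference was 0.54 ± 0.14 (SE; 95% interval 0.27 to 0.82; 1.46-fold), with an unadjusted limma p of 0.00031 and an adjusted p of 1.00. Without animal 282 it was 0.69 ± 0.13 and passed, with an adjusted limma p of 0.0467. Over its other alternatives the adjusted p ran from 0.272 to 1.00.

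Other NRF2 targets had smaller differences of the same sign. Gsta3, an alpha-class glutathione transferase, was at 8.72, 8.55, 8.42, 8.60 and 8.26 in the 200 ppm rats and 8.18, 8.25, 7.94, 8.13 and 7.93 in the 90 ppm rats. The groups did not overlap, and the difference was 0.43 ± 0.17 (unadjusted p of 0.0156 and adjusted p of 1.00, limma). Non-overlap of 5 against 5 rats was seen for 20 of the 11010 genes (0.182%), 7 of them higher (0.0636%) and 13 lower (0.118%) at 200 ppm. In random order 5 against 5 values separate with a probability of 0.00794, which is above the share seen. The catalytic subunit of glutamate-cysteine ligase (Gclc), which makes the first bond of glutathione, was at 9.46, 9.43, 9.39, 9.44 and 8.94 at 200 ppm and 9.13, 9.27, 9.05, 9.15 and 8.92 at 90 ppm. Again animal 282 alone fell within the range of the 90 ppm rats, and the difference was 0.23 ± 0.08, or 0.32 ± 0.07 without that animal. A second Gclc probe set gave 0.37 ± 0.09. Its modifier subunit, Gclm, was at 8.66 to 9.20 at 200 ppm and 8.49 to 8.98 at 90 ppm, a difference of 0.24 ± 0.10. Nqo1, the quinone reductase, was at 11.97 to 12.32 at 200 ppm and 11.69 to 12.02 at 90 ppm, a difference of 0.27 ± 0.10. Thioredoxin reductase (Txnrd1) was at 10.48 to 10.78 against 10.36 to 10.56, a difference of 0.21 ± 0.07. The groups overlapped for Gclm, Nqo1 and Txnrd1, and none of these 5 genes had an adjusted limma p under 0.05 with or without animal 282.

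**Figure D3:**
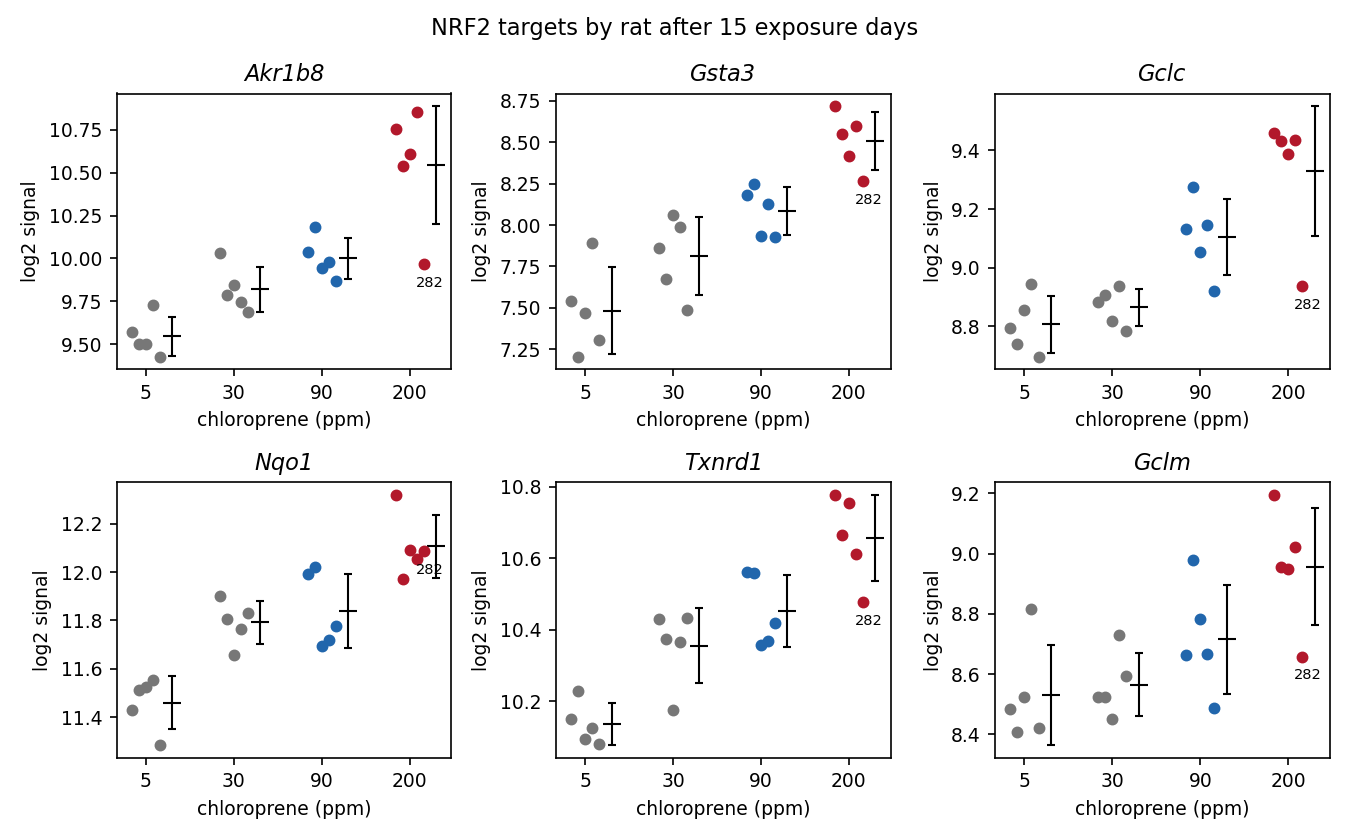
Log2 signal (y axis) of 6 NRF2 targets in each rat after 15 exposure days at 5, 30, 90 and 200 ppm (x axis); points are animals, and the bar to their right is the mean ± SD (n = 5). Mean Akr1b8 stands at 9.55, 9.82, 10.00 and 10.54 in that order, and animal 282 is the lowest 200 ppm rat for Akr1b8, Gsta3, Gclc, Txnrd1 and Gclm.

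Of 32 NRF2 targets listed, 25 were measured, and 23 of them lay above 0 in the difference of 200 minus 90 ppm. Their median was 0.15, beside -0.01 over all 11010 genes, of which 4667 lay above 0. At an unadjusted p under 0.05 there were 8 (Akr1b8, Gsta3, Srxn1, Nqo1, Gclm, Gclc, Txnrd1 and Me1), all higher, where 0.336% of all genes were; 0 passed the adjusted threshold (0%). Srxn1, which repairs oxidised peroxiredoxins, was at 0.33 ± 0.16, and malic enzyme (Me1), a source of NADPH, at 0.18 ± 0.08. The Srxn1 signal was 9.18 in animal 277 and 7.79 in animal 282, the latter below every 90 ppm rat (7.94 to 8.30). Several well-known targets had small differences: haem oxygenase (Hmox1) was at 0.04 ± 0.14 (95% interval -0.25 to 0.32), glutathione reductase (Gsr) at 0.03 ± 0.23 and thioredoxin (Txn1) at -0.03 ± 0.04. The microsomal epoxide hydrolase Ephx1, which opens epoxides, was at 0.19 ± 0.12 and at 0.05 ± 0.11 without animal 282. The list median was sensitive to single animals: it was 0.08 without animal 282 (21 members above 0), 0.09 without animal 277 (17 above 0) and 0.10 without animal 261 (21 above 0). With the 3′ minus 5′ control difference as a covariate it was 0.06, with 19 members above 0.

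Values of the same genes at 5 and 30 ppm place these differences among the lower concentrations. The 5 ppm comparisons share their 90 and 200 ppm arrays with the main comparison, so their values are set side by side only. Mean Gsta3 was 7.48 ± 0.26 (SD) at 5 ppm, 7.81 ± 0.23 at 30 ppm, 8.08 ± 0.15 at 90 ppm and 8.51 ± 0.17 at 200 ppm. Mean Gclc was 8.81 ± 0.10, 8.87 ± 0.06, 9.10 ± 0.13 and 9.33 ± 0.22 at these concentrations, and Nqo1 11.46 ± 0.11, 11.79 ± 0.09, 11.84 ± 0.15 and 12.11 ± 0.13. Gsr had another shape, with 7.52 ± 0.47 at 5 ppm and then 8.60 ± 0.26, 8.62 ± 0.34 and 8.65 ± 0.24. With the 3′ minus 5′ control difference as a covariate, Gsr moved from 1.14 to 0.42 in 200 against 5 ppm and from 1.10 to 0.67 in 90 against 5 ppm, and passed in neither. In 200 against 5 ppm, 11 of the 25 NRF2 targets passed limma's adjusted threshold upward, where 0.5% of all genes did. Akr1b8 rose by 1.00 on the log2 scale (limma, adjusted p = 0.00014) and Gsta3 by 1.03 (adjusted p = 0.000916). In 90 against 5 ppm 2 of the 25 passed upward, Txnrd1 at 0.32 and Gsr at 1.10, where 0.272% of all genes did.

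RNA integrity scores at 5 ppm were 8.5 to 9.4, somewhat above those at 90 and 200 ppm. The 3′ minus 5′ control difference was also higher there, at a mean of 0.389 (0.141 to 0.517). With the 3′ minus 5′ control difference as a covariate 3 of the 25 NRF2 targets passed in 200 against 5 ppm and 0 in 90 against 5 ppm. Over all genes the counts were also 3 and 0. The part of RNA quality in the 5 ppm values was not tested further. Akr1b8 and Gsta3 were among those 3, each with an adjusted limma p of 0.035. Leaving out 1 rat at a time left 7 to 11 of the 25 called in 200 against 5 ppm, with 7 without 5 ppm animal 225, and Akr1b8 and Gsta3 passed each time. In 90 against 5 ppm it left 4 without animal 226, 1 without animal 260 or 261, and 0 without any of 225, 227, 228, 229, 257, 258 and 259. The count over all genes, in either direction, moved as well. It ran from 15 to 275 in 200 against 5 ppm and from 2 to 143 in 90 against 5 ppm. Fitted to the arrays of the compared groups alone, 0 genes passed in 200 against 5 ppm and 1 in 90 against 5 ppm.

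The lower side of the comparison held genes of cell division. Cks2, a subunit of the cyclin-dependent kinases, was at 6.98, 7.14, 7.03, 6.99 and 6.74 in the 200 ppm rats and 7.54, 7.46, 7.57, 7.33 and 7.14 in the 90 ppm rats. Every 200 ppm rat lay below the lowest 90 ppm rat, though animals 279 and 261 share a value to 2 decimals, and the difference was -0.43 ± 0.12 (95% interval -0.68 to -0.19; limma, unadjusted p of 0.000964 and adjusted p of 1.00). Survivin (Birc5), a protein of the mitotic spindle and the dividing cell's midbody, was at 6.42, 6.54, 6.38, 6.41 and 6.41 at 200 ppm and 6.79, 6.68, 6.68, 6.65 and 6.79 at 90 ppm. Its groups did not overlap either, and the difference was -0.28 ± 0.08. Nusap1, which bundles spindle microtubules, was likewise lower in all 5 rats, by a difference of -0.28 ± 0.11. So was the condensin subunit Ncapg2, at -0.28 ± 0.10. Birc5 in the 200 ppm rats and Ncapg2 in all 10 rats (6.06 to 6.56) lay below 6.65, the value of the filter on low signal. Ncapg2 passed that filter through other rat arrays. The kinase-associated phosphatase Cdkn3 was at -0.46 ± 0.16, the replication clamp partner Pclaf at -0.47 ± 0.14, the mitotic kinase Cdk1 at -0.35 ± 0.13 and the cytokinesis protein Racgap1 at -0.36 ± 0.13, all with overlapping groups. In 200 against 5 ppm Cks2, Ncapg2, Cdkn3 and Pclaf were at -0.59 ± 0.12, -0.51 ± 0.10, -0.46 ± 0.16 and -0.40 ± 0.14. Birc5 was at -0.10 ± 0.08 there, and at 0.19 ± 0.08 in 90 against 5 ppm.

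**Figure D4:**
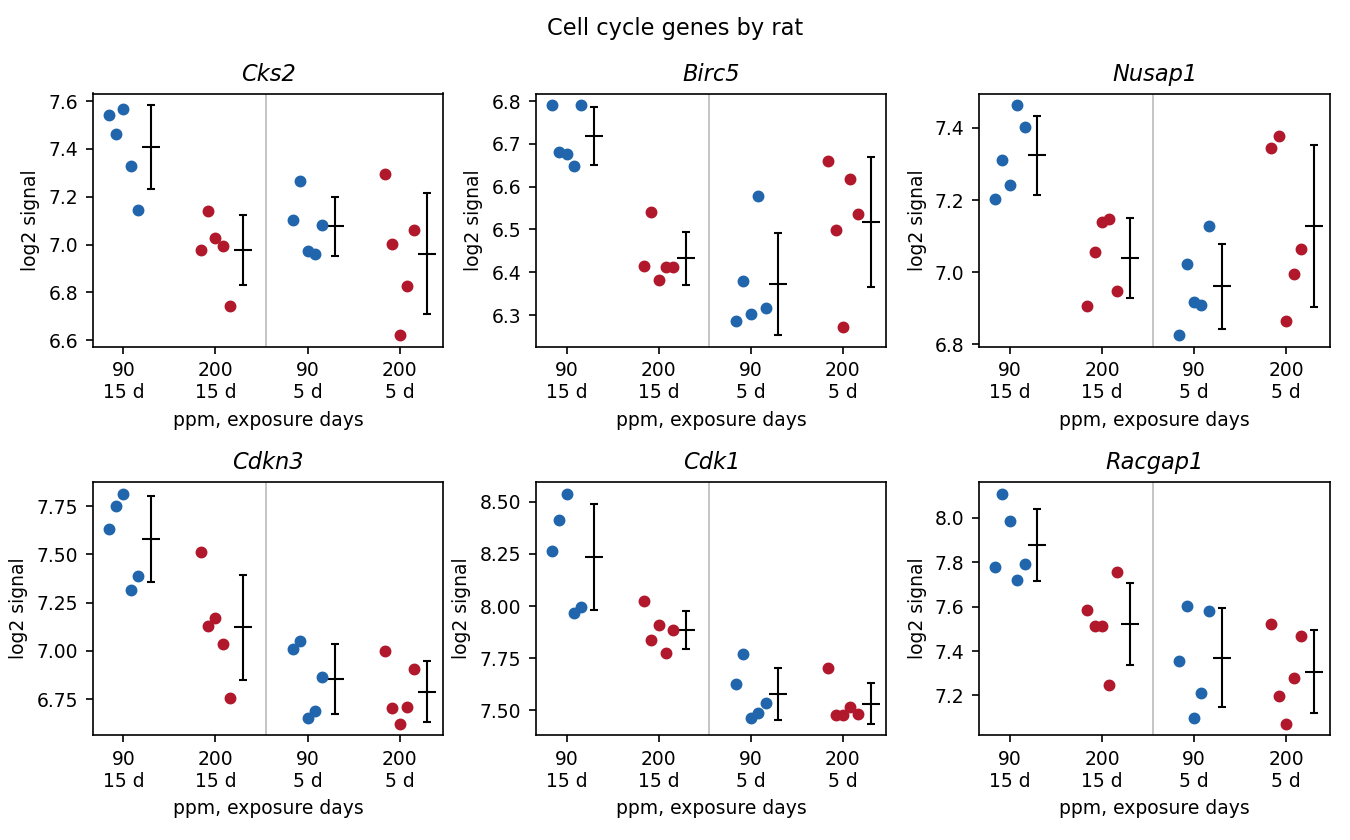
Log2 signal (y axis) of 6 cell cycle genes in each rat at 90 ppm (blue) and 200 ppm (red) after 15 and after 5 exposure days (x axis); the bar beside the points is the mean ± SD (n = 5). After 15 days the 200 ppm rats lie lower for Cks2 (-0.43), Birc5 (-0.28) and Nusap1 (-0.28) with no overlap, and after 5 days the groups overlap for all 6 genes.

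Of 52 cell cycle genes listed, 37 were measured and 33 of them lay below 0, with a median of -0.12 beside -0.01 over all genes. At an unadjusted p under 0.05 there were 10 lower and 0 higher, where 1.06% of all genes were lower; limma called 0 after adjustment (0%). Mki67, the common proliferation marker, was left out by the filter on low signal: its only probe set lay between 4.95 and 6.36 and passed the filter value on 0 of the 40 arrays. Of the 15 listed genes not tested, 9 were below the filter and 6 had no probe set with their symbol alone. With no filter 42 of 46 lay below 0, with a median of -0.12. The mean of the 37 genes per rat, each gene centred on its mean over the 40 rat arrays, was -0.03, -0.04, -0.11, -0.13 and -0.01 in the 200 ppm rats and 0.09, 0.15, 0.11, 0.05 and 0.03 in the 90 ppm rats. These levels did not overlap, and of the 51 lists examined this was the only one of which that held. In the 5 ppm rats after 15 days (225 to 229) the level was 0.21, 0.19, 0.10, -0.003 and -0.06, overlapping both groups. After 5 days it ran from -0.19 to -0.04 at 90 ppm and from -0.19 to -0.03 at 200 ppm. Replication genes lay on both sides of the list median. The helicase subunits Mcm2 to Mcm7 ran from -0.22 for Mcm5 to -0.03 for Mcm7, and the clamp Pcna was at -0.16 ± 0.07. The p53 target Cdkn1a, an inhibitor of the cell cycle, was at -0.06 ± 0.10 (95% interval -0.26 to 0.15; 0.07 ± 0.17 from a second probe set), and the 16 p53 targets measured had a median of -0.00. Leaving out any 1 animal left 31 to 34 of the 37 below 0 and a median of -0.12 to -0.16. The 3′ minus 5′ control difference was lower in the 200 ppm rats, as given above, and with it as a covariate 32 of the 37 lay below 0, with a median of -0.15.

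**Figure D5:**
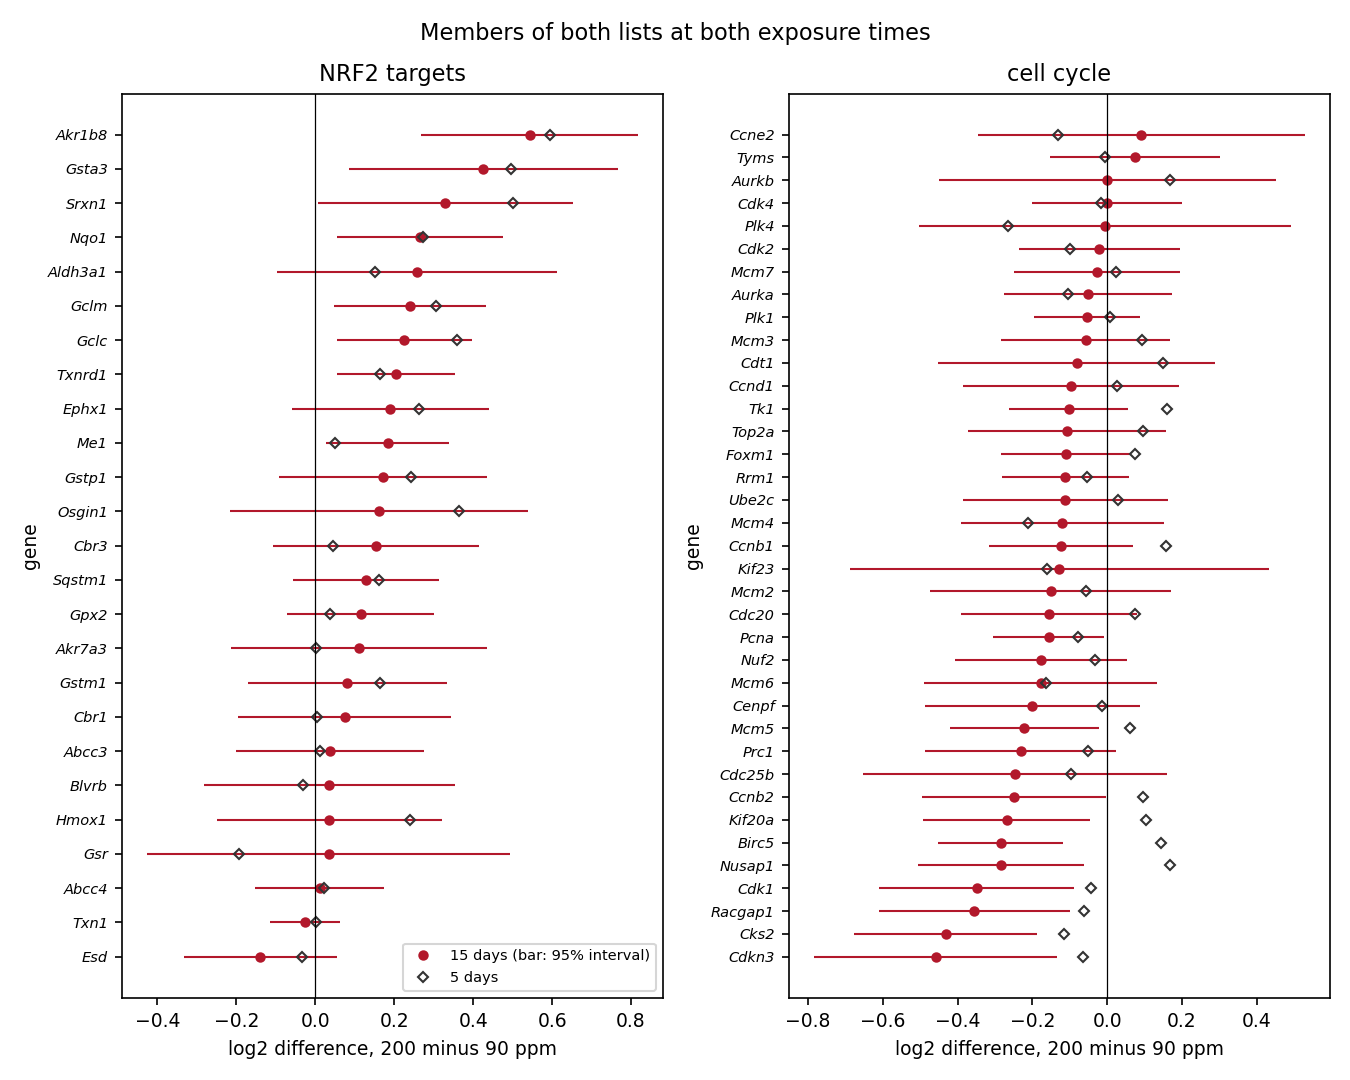
Log2 difference of 200 minus 90 ppm (x axis) for each measured member (y axis) of the NRF2 target and cell cycle lists; filled points with 95% intervals are after 15 exposure days and open diamonds after 5 days, in other rats. Of the NRF2 targets 23 of 25 lie above 0 after 15 days and 22 after 5 days, while the cell cycle genes have medians of -0.12 and -0.01.

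Among genes outside these lists, follistatin (Fst), which binds and blocks activin, had the smallest p on the lower side. It was at 8.88, 8.42, 8.41, 8.01 and 7.87 in the 200 ppm rats and 8.59, 8.79, 9.23, 9.04 and 8.99 in the 90 ppm rats. Only animal 277 of the 200 ppm group lay within the range of the 90 ppm rats, and the difference was -0.61 ± 0.16 (95% interval -0.93 to -0.29; limma, unadjusted p of 0.00047 and adjusted p of 1.00). A second Fst probe set gave -0.43 ± 0.13. Angiopoietin-2 (Angpt2), a vessel-remodelling ligand of the endothelial receptor TIE2, was at 7.57 to 8.42 at 200 ppm and 8.27 to 8.52 at 90 ppm, a difference of -0.36 ± 0.11. The G protein regulator Rgs4 was at -0.40 ± 0.13 (-0.20 ± 0.105 from its second probe set), the RNA exosome subunit Exosc3 at -0.35 ± 0.11 and the Mediator subunit Med15 at -0.20 ± 0.06. Kiaa1549 (-0.19 ± 0.07) and the zinc finger gene Zfp532 (-0.19 ± 0.07) completed the 12 lower genes with the smallest p. In 90 against 5 ppm Fst was at 0.35 ± 0.16 and Exosc3 at 0.55 ± 0.11. In 200 against 5 ppm they were at -0.26 ± 0.16 and 0.20 ± 0.11. Angpt2, Rgs4 and Med15 were at -0.43 ± 0.11, -0.46 ± 0.13 and -0.23 ± 0.06 in 200 against 5 ppm. Beside Cks2, Birc5, Nusap1, Ncapg2 and Med15, the genes with every 200 ppm rat below every 90 ppm rat were Zc4h2, the cadherin Cdh22, the DNA polymerase epsilon subunit Pole2, the RNase P subunit Pop1, Ttll5, the fucosyltransferase Fut2, the nuclear exchange factor Rcc1 and Wdr13. Their differences ran from -0.25 (Zc4h2) to -0.08 (Wdr13).

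On the higher side, Dlk1, a membrane protein related to the Notch ligands, was at 7.12, 6.36, 6.73, 6.52 and 6.81 in the 200 ppm rats and 6.21, 6.51, 6.26, 6.24 and 5.89 in the 90 ppm rats. The difference was 0.49 ± 0.15, with 1 rat of 200 ppm inside the range of the 90 ppm rats. Every 90 ppm rat and animals 279 and 281 of the 200 ppm group lay below 6.65, the value of the filter on low signal. Agps, an enzyme of ether lipid synthesis in peroxisomes, was at 0.41 ± 0.16. Hap1, the huntingtin-associated protein, was at 0.23 ± 0.08 and dystrophin (Dmd) at 0.20 ± 0.07, both with no overlap between the groups. Surfactant protein B (Sftpb) was at 13.99 to 14.20 at 200 ppm and 13.90 to 14.04 at 90 ppm, a difference of 0.12 ± 0.04, and Slc25a51l1 at 0.16 ± 0.06. In 90 against 5 ppm these 2 genes were at -0.14 ± 0.04 and -0.15 ± 0.06. In 200 against 5 ppm they were at -0.02 ± 0.04 and 0.01 ± 0.06. Dlk1, Hap1, Dmd and Agps were at 0.37 ± 0.15, 0.46 ± 0.08, 0.19 ± 0.07 and 0.14 ± 0.16 in 200 against 5 ppm. The other genes with every 200 ppm rat above every 90 ppm rat were the glutathione transferase Gsta1, the dehydrogenase Adhfe1, the carboxylesterase Ces1d and the ubiquitin ligase Rnf14. Ces1d, at 13.15 to 13.26 against 13.06 to 13.14, shows how small such a difference could be.

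The enzymes that form chloroprene's epoxides had wide or small differences. Cyp2e1 was at 9.30 to 9.74 at 200 ppm and 9.04 to 9.49 at 90 ppm, a difference of 0.22 ± 0.13 (95% interval -0.04 to 0.48). The club cell P450 Cyp2f4 was at 10.65, 10.12, 9.65, 10.39 and 12.17 at 200 ppm and 10.80, 11.19, 10.49, 10.95 and 10.61 at 90 ppm. Animal 282 was the highest of all 10, whereas 279, 280 and 281 lay below every 90 ppm rat. The difference was -0.21 ± 0.38 with all rats and -0.61 ± 0.36 without animal 282, with an unadjusted limma p of 0.1. Of 31 measured genes of first-phase xenobiotic metabolism 22 lay above 0, with a median of 0.05, and 4 had an unadjusted p under 0.05: Akr1b8, Nqo1, Ces1d and Ces2c, all higher, where 0.336% of all genes were. Without animal 282 the median was 0.01, with 18 above 0, and over the other rats left out it ran from 0.04 to 0.11. Among 31 genes of glutathione synthesis and conjugation 22 lay above 0 (median 0.05), and 15 did without animal 282.

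Immediate early genes, which answer stimuli within minutes, spread widely between rats of a group. Egr1 was at 11.59 in animal 277 and 8.84 to 9.19 in the other 4 rats of 200 ppm, and at 11.48, 11.12, 9.41, 9.53 and 10.26 in the 90 ppm rats. Animal 277 was thus the highest of all 10, and the rest of its group lay below every 90 ppm rat. The difference was -0.84 ± 0.56, and it was -1.36 ± 0.55 without animal 277 and -0.56 ± 0.59 without animal 257. Nr4a1 was at -0.65 ± 0.32 and Nr4a3, mostly below the filter value, at -0.59 ± 0.26. Of the 30 genes measured 23 lay below 0 (median -0.12), as did 57.6% of all genes. At an unadjusted p under 0.05, 2 were lower, where 1.06% of all genes were. Leaving out 1 rat moved the list median between -0.07 (without 279) and -0.18 (without 277).

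Markers of most lung cell types had medians close to that of all genes. Alveolar type 2 markers were at 0.04 (12 of 17 above 0), type 1 markers at 0.03 (11 of 19) and alveolar macrophage markers at 0.03 (11 of 18). Markers of smooth muscle and pericytes stood at -0.17, with 15 of 16 below 0; Cnn1 was at -0.36 ± 0.21 and Tpm2 at -0.31 ± 0.16. Fibroblast and matrix genes were at -0.09 (33 of 38 below 0) and endothelial genes at -0.07 (21 of 27 below 0). None of these lists held a gene past the adjusted threshold, and 1 or 0 genes in each had an unadjusted p under 0.05, where 1.4% of all genes did. These values moved with single rats. Without animal 277 the smooth muscle list had 7 of 16 genes lower at an unadjusted p under 0.05 and a median of -0.24. The fibroblast list had 6 of 38 and -0.15. Over all genes, 371 of 11010 were lower at that threshold without this rat, with a median of -0.04. The endothelial median was -0.13. Without animal 279 the smooth muscle median was -0.10, the endothelial -0.03 and the type 1 -0.01, without 282 the fibroblast median was -0.05, and without 260 the macrophage median was -0.06. Markers of the conducting airway moved most with animal 282: club cell markers had a median of 0.07 with it and -0.03 without it, ciliated cell markers 0.03 and -0.08 (-0.03 without animal 259), and mucous cell markers 0.04 and -0.12.

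After 5 exposure days the NRF2 targets differed between the concentrations by similar amounts in other rats. Akr1b8 was at 0.60 ± 0.14 after 5 days and 0.54 ± 0.14 after 15, Gclc at 0.36 ± 0.08 and 0.23 ± 0.08, and Gsta3 at 0.50 ± 0.17 and 0.43 ± 0.17. The list median was 0.16 after 5 days, with 22 of 25 above 0, and 21 of the 25 lay above 0 at both times, as did 17.3% of all genes. The cell cycle genes had a median of -0.01 after 5 days, and Birc5 was at 0.14 ± 0.08 then, a difference between the times of -0.43 ± 0.12 (limma, adjusted p of 1.00). Reep1 (-0.61 ± 0.17) and Cnfn (-0.30 ± 0.09) were the other 2 genes with the smallest p for a lower value at the later time. The test of the difference between the times called 0 genes (0%), and 212 (1.93%) were at an unadjusted limma p under 0.05. The 5-day comparison itself also called 0 (0%); 439 genes (3.99%) were at that unadjusted threshold, although 41 genes passed without 200 ppm animal 268.

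Interferon response genes had values near 0 after 15 days and below 0 after 5 days. Of the 30 measured, 15 lay above and 15 below 0 after 15 days, with a median of -0.00. After 5 days the median was -0.62, and 26 of the 30 were lower at an unadjusted p under 0.05, where 2.14% of all genes were, while 0 passed the adjusted threshold. The antiviral gene Rsad2 was at -1.10 ± 0.23 after 5 days and -0.39 after 15, and Sp110 at -0.40 ± 0.08 and -0.06. The GTPase Igtp was at -1.27 and 0.04, a difference between the times of 1.31 ± 0.41, and Irgm2 and Rnf213 differed by 0.88 ± 0.28 and 0.71 ± 0.23, each with an adjusted limma p of 1.00. Choline kinase (Chka) was at -0.32 ± 0.07 after 5 days and -0.03 after 15, and the tight junction gene Cldn1 at 0.40 ± 0.11 and 0.10. RNA integrity scores after 5 days were 7.1 to 8.7 at 200 ppm (4 rats with a score) and 9.2 to 9.3 at 90 ppm, where those after 15 days overlapped. A fit with the score as a covariate was among the alternatives, and the part of RNA integrity in the 5-day values was not tested further.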

How the data were processed

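The authors deposited 1 log2 signal for each probe set and array. Trizol extraction, RNeasy purification and biotin labelling are named per the labels' protocols; the summarization and normalization are not given in the sources used here. The rat table had 31099 probe sets. Only the 20826 that the array annotation pairs with a single gene symbol were used (57 controls, and of the rest 436 with several symbols and 9780 with none, were left out). Probe sets needed a signal over 6.65, the 40th percentile of the table, on 5 or more arrays, and the remaining probe set of highest mean signal stood for its gene, leaving 11010 genes. A mean per group was fitted to all 40 rat arrays (8 groups) with limma 3.58.1 in R 4.3.3 (lmFit, eBayes). Tests were two-sided, Benjamini-Hochberg adjustment ran over all genes, and the threshold was 0.05. SEs are moderated, and with 5 arrays a group their number limits what can be resolved. The fit was tried on simulated data with independent noise for each gene, which cannot show its behaviour where genes vary together. No identical arrays were found, and the labels give each array its own animal.

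The members, lists and tests were chosen with earlier results of these data known. In the main comparison the named genes are the 12 largest changes of each direction past the threshold, filled up by p where fewer passed, unnamed gene models left out. For the 5-day comparison and the difference between times they are the 3 of each direction with the lowest p. Chloroprene metabolism, glutathione, club cell and cell cycle genes (Cyp2e1, Cyp2f4, Ephx1, Hmox1, Gclc, Gclm, Nqo1, Scgb1a1, Cdkn1a, Mki67) are named in any case; other list members and the airway genes were picked after their values were seen. Alternatives changed the filter, normalization, probe set rule, covariates, moderation, arrays in the fit and each animal in turn. The covariate from probe sets without a symbol was added after seeing the data.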

Additional observations from a re-analysis of the deposited data

Results flagged for a closer look

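Within the groups of 5, the distance of 1 rat from the rest was tested by Dixon's criterion for the 30 named genes, 60 groups in all, of which chance picks about 1 in 20. It picked 3. Gclc was at 8.939 in animal 282 of the 200 ppm group, against 9.387 to 9.459 in the other 4. Agps was at 7.329 in animal 261 of the 90 ppm group, against 6.837 to 6.964 in the others. Birc5 was at 6.54 in animal 279 of the 200 ppm group, against 6.383 to 6.416 in the others.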

How the results depend on the processing

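The count of genes between 200 and 90 ppm after 15 days was 0 under 19 of the 20 alternatives, with 64 to 669 genes at an unadjusted p under 0.05 and a smallest adjusted limma p of 0.0467. Leaving out 1 rat at a time gave 0 to 1 genes for it, 0 to 41 for the 5-day comparison, 0 to 0 for the difference between times, 2 to 143 for 90 against 5 ppm and 15 to 275 for 200 against 5 ppm. The reported counts of these were 0, 0, 0, 34 and 90.

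The 5-day count was 1 with no filter, 1 from its own 2 groups' arrays and 36 with the component of unnamed probe sets as a covariate. For 90 against 5 ppm the count was 0 with the RNA integrity score, 0 with the 3′ minus 5′ difference, 1 from its own groups' arrays and 467 with the component. For 200 against 5 ppm it was 148 with the mean of all probe sets, 20 with the integrity score, 3 with the 3′ minus 5′ difference, 0 from its own groups' arrays and 1121 with the component. That component had an absolute correlation of 0.998 with the first principal component of the tested genes over the 40 rat arrays. The causes of these counts were not tested.

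Of 598 values of single named genes under the alternatives, 1 passed the threshold (Akr1b8 without animal 282) and 8 changed sign. With 1 rat left out, Cyp2f4 ran from -0.608 (without 282) to 0.0209 (without 280), and Cdkn1a from -0.16 (without 282) to 0.00101 (without 279). Hmox1 ran from -0.0257 (without 281) to 0.122 (without 258), and was also below 0 without 277 (-0.0196), 260 (-0.0158) or 261 (-0.00727). Cdkn1a was at 0.0045 with the mean of its probe sets and at 0.0678 from its other probe set. No paired analysis was possible because the animal numbers are not shared between the groups.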
